A study of Homo sapiens with 2 samples.

Results

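The epithelial kallikreins KLK5 to KLK14 are 10 neighbouring genes on the long arm of chromosome 19 that encode secreted serine proteases. Every non-control probe whose gene name on the array was one of these 10 symbols was taken, which gave 12 probes of 41000 and 10 of 30484 gene names. KLK10 and KLK13 had 2 probes each and the other 8 genes had 1 probe. The study compared 1 array of SAS cells, an established human squamous-cell carcinoma line from a tongue tumor, with 1 array of eSAS cells, the population left after SAS cells had passed 5 rounds of selection for large spheroids with the Spheroid Catch, a device with a removable membrane that retains large cell aggregates. Neither population carried a transgene or drug treatment in the labels, both RNAs were taken in the log phase of growth, and both arrays lay on 1 slide. There was 1 array per population, so no test could be run and no p-value is given. The selection, the passage of the cells and the array cannot be told apart, and whether the eSAS RNA came from 1 clone or a mixed population is not given in the sources used here.

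Kallikreins of this group are made as inactive precursors in stratified epithelia, skin and several glands, and they are activated outside the cell by cleavage, in part by each other. In the outer epidermis KLK5, KLK7 and KLK14 cut the proteins that hold dead keratinocytes together, and inhibitors such as the SPINK5 product LEKTI restrain them. Several members are used or studied as markers in carcinomas, where their levels differ between tumor types.

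In eSAS, 3 of the 10 genes were lower by at least 1.5-fold, namely KLK10, KLK11 and KLK13, and none was higher by that size. KLK11 was 5.10-fold lower in eSAS, KLK13 was 2.54-fold and 2.55-fold lower with its 2 probes, and KLK10 was 1.66-fold and 1.60-fold lower. Under 1 background model, a normexp fit to all spots, KLK11 and the second KLK13 probe had log2 ratios of 0.81 and 1.59 instead, beside a median of 0.53 over all probes. These 3 genes lie in one stretch of the cluster, with KLK12, which was not well above background in eSAS, between them. KLK14, at the end of the cluster, differed by 1.05-fold, and KLK5 to KLK9 were 1.10-fold to 1.35-fold lower. By probe, 3 of 12 were at least 2-fold lower, beside 1.97% of the 28439 probes that cleared background on 1 or both arrays, and 5 of 12 were at least 1.5-fold lower, beside 6.12%. None of the 12 was at least 2-fold or 1.5-fold higher, beside 1.83% and 4.43% of all probes. Under the normexp fit to all spots 1 member probe was lower by 2-fold or more and 3 were higher by that size. By 1.5-fold or more, 4 were higher and 5 lower, the 5 being KLK5, KLK6, KLK8 and both KLK10 probes. The median log2 ratio over all probes was then 0.53, with an SD of 1.15, and the shares of all probes past these sizes are not given here. In the main processing the 5 lower probes stand for 3 genes, since probes of 1 gene share its transcript.

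All ratios are of processed signal, in arbitrary intensity units, after each array was set to its own 75th percentile, which was 1242 units for SAS and 1196 for eSAS. On this scale the median log2 ratio of eSAS over SAS was -0.0039 over 26659 probes well above background on both arrays, with an SD of 0.36 across probes. Across replicate spots of 1 probe on these arrays the SD of the log2 ratio was 0.072, from 208 probes. No probe spot was saturated, and 69.4% of spots were well above background in SAS and 67.5% in eSAS. Because bulk RNA was measured, fewer cells expressing a gene and less RNA per cell cannot be told apart.

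All 8 squamous epithelium markers examined (KRT5, KRT14, KRT6A, KRT17, TP63, SFN, CDH1 and EPCAM) were well above background on both arrays. Of the other cell types, 1 of 5 fibroblast markers and 1 of 4 immune markers were above it on each array. The fibroblast marker above it was COL1A1, a collagen gene, in SAS (15.1 units, and 4.90 in eSAS) and LUM, the lumican gene, in eSAS (29.6 units, and 3.21 in SAS). LUM was at least 2.40-fold higher in eSAS, and COL1A1 has no fold because its signal in SAS was under the limit of the eSAS array. Of 3 endothelial markers 2 were above it in SAS and 1 in eSAS, and the same held for 3 melanocyte markers. All 4 luminal or glandular markers (KRT8, KRT18, KRT7 and MUC1) were above it in both, with log2 ratios from -0.37 to 0.52.

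**Figure D1:**
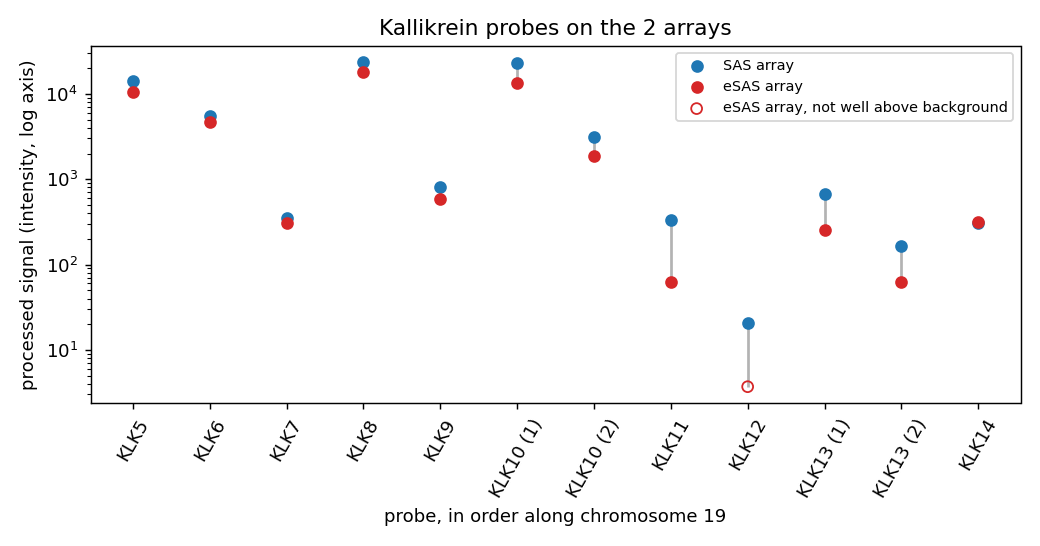
Processed signal of the 12 kallikrein probes in SAS (blue) and eSAS (red), on a log axis in intensity units, in order along chromosome 19. The red and blue points lie far apart for KLK11, from 329.6 to 62.3 units, and nearly on each other for KLK14, at 310.1 and 314 units. The open circle marks the KLK12 signal that was not well above background on the eSAS array.

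The sequences before the transcription starts of KLK10, KLK11, KLK13 and KLK14 are shown, because the first 3 genes had the lower probes and KLK14, their neighbour, did not. Each run is 250 bases directly upstream of the most upstream start that the RefSeq promoter table lists for the gene, 5′ to 3′ on the strand of the gene, on GRCh38.p14. KLK10 is chr19:51019862-51020111, KLK11 chr19:51027647-51027896, KLK13 chr19:51065093-51065342 and KLK14 chr19:51084211-51084460, all on the minus strand. That table does not list every start: the RefSeq gene records of KLK10, KLK11 and KLK13 reach further upstream than the starts used. Capitals mark GGGCGG, the core of the GC box, on either strand.
KLK10: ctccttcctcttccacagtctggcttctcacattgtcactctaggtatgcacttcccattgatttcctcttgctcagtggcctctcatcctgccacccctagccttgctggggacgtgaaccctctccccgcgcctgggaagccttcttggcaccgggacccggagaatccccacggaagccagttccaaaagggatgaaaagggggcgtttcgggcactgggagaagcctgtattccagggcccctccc
KLK11: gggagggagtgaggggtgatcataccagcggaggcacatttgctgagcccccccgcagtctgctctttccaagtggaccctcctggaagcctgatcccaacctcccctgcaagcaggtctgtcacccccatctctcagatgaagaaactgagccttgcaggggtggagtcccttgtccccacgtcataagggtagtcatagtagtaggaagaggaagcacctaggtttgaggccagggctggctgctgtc
KLK13: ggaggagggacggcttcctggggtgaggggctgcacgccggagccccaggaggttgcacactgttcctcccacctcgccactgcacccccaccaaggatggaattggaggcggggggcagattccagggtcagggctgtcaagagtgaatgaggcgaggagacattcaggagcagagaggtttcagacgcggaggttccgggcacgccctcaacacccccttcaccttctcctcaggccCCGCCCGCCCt
KLK14: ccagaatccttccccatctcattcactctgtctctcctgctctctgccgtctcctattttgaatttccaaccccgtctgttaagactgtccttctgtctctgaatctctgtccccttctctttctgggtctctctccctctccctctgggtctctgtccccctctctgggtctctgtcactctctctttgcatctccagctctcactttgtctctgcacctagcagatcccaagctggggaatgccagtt

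A promoter entry was found for 9 of the 10 genes, and KLK8 had no entry. GGGCGG occurred in the windows of KLK6 (3 matches), KLK7 (2), KLK9 (1) and KLK13 (2, overlapping each other), beside 42.6% of 35093 promoter windows of this length. AGGTCA, a core site of nuclear receptors, was found in none of the 9 windows, beside 12.1% of all windows. TGANTCA, the site of AP-1 factors, was likewise without a match, beside 6.57%. The windows of the 9 genes held between 2 CpG dinucleotides (KLK14) and 12 (KLK6, KLK7 and KLK13), beside a median of 11 over all windows. KLK11 held 3 and KLK10 held 8, so the 3 genes that were lower did not share a high or a low CpG count. Both strands were searched, and a match or its absence describes the letters of the window only. Each member had a single window, at its most upstream listed start. The 35093 windows include every distinct listed start of all genes, so the 2 sets were not chosen alike.

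KLK11, also known as hippostasin, was the member with the largest difference among those measured on both arrays under the main processing. Its probe (A_23_P101505, hg18 chr19:56217438-56217497) gave 329.6 units in SAS and 62.3 in eSAS. The log2 ratio was -2.35, with an error of 0.22 that the scanner software's errors of both spots give. It ranked 26 from the lowest of 26659 probes under this processing, so that 0.0938% of probes were lower. The normexp fits to all spots turned its ratio to 0.81 and 0.86, beside a median of 0.53 over all probes under both.

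KLK13, another trypsin-like member that is found in stratified epithelia and testis, was read by 2 probes. The first (A_24_P416645, chr19:56253662-56253721) gave 676 units in SAS and 256 in eSAS, a log2 ratio of -1.34. The second (A_24_P333697, chr19:56255128-56255526, a span of 399 bases that the probe crosses in pieces) gave 164 and 61.7 units, a log2 ratio of -1.35. The ratios of the 2 probes differed by 0.0084 on the log2 scale under the main processing. With no background correction they were -1.20 and -0.79. Under the normexp fit to all spots they were -0.079 and 1.59, beside a median of 0.53 over all probes. Their signals lay in different brightness groups, when all probes measured on both arrays were cut into 4 equal groups by mean level.

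KLK10, first isolated as a gene active in normal breast epithelium and lost in breast cancer lines, also had 2 probes, whose starts are 463 bases apart. One (A_23_P107911, chr19:56209408-56209467) gave 23056 units in SAS and 13358 in eSAS, a log2 ratio of -0.73. The other (A_24_P399490, chr19:56209871-56209930) gave 3148 and 1891 units, a log2 ratio of -0.68. Both were lower on the eSAS array, and their ratios differed by 0.052. The brighter of the pair was in the brightest of the 4 brightness groups, in which 2.3% of probes were at least 1.5-fold lower, and the dimmer in the group next to it, in which 3.57% were.

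The probes of KLK11 and KLK13 were dimmer, and large ratios were more common among dim probes. KLK11 and the first KLK13 probe lay in the group above the dimmest, in which 1.31% of probes were at least 2-fold lower, and the second KLK13 probe lay in the dimmest group, in which 2.91% were. KLK12 was the dimmest member (A_23_P500010, chr19:56224172-56224231), with 20.4 units in SAS and 3.70 in eSAS, where it was not well above background. Its signal in eSAS is therefore only bounded, and it was at least 1.29-fold lower. All 10 genes thus had a probe well above background in SAS, and 9 had one in eSAS.

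**Figure D2:**
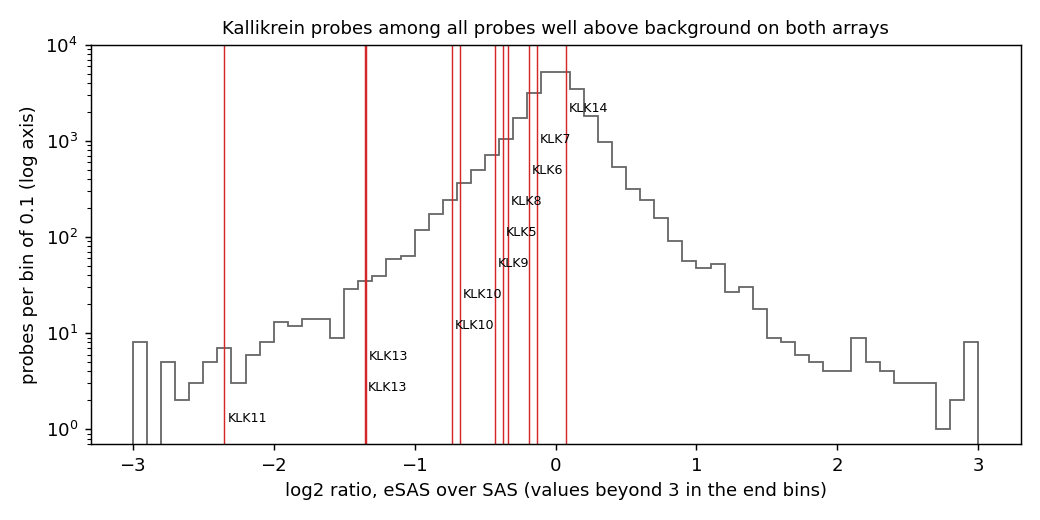
Number of probes per 0.1 of log2 ratio of eSAS over SAS (grey outline, log axis) for 26659 probes well above background on both arrays, with values beyond 3 in the end bins. Red lines mark the 11 kallikrein probes measured on both arrays. KLK11 at -2.35 and both KLK13 probes near -1.35 stand in the left tail under the main processing, and KLK14 at 0.073 stands near the centre.

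Under the main processing the proteases of epidermal shedding were all within 1.5-fold between the arrays. KLK5, the trypsin-like protease that can activate itself and other members (A_23_P153480, chr19:56138678-56138737), gave 14009 units in SAS and 10407 in eSAS, a log2 ratio of -0.37. KLK7, the chymotrypsin-like protease of the stratum corneum (A_23_P39056, chr19:56172489-56172548), gave 349 and 307 units, a log2 ratio of -0.13. KLK14, a trypsin-like protease with strong activity in the skin surface (A_23_P78717, chr19:56277879-56279217, a span of 1339 bases), gave 310.1 and 314 units, a log2 ratio of 0.073. KLK5 was thus 1.30-fold and KLK7 1.10-fold lower in eSAS, while KLK14 was the only member with a ratio above 0 under this processing, by about the SD between replicate spots. The error from the scanner software was 0.21 for both KLK7 and KLK14, larger than either ratio, and 0.20 for KLK5. Under the normexp fit to all spots KLK5 was at -0.91, KLK7 at 1.03 and KLK14 at 1.19, so that KLK7 turned direction and all 3 passed 1.5-fold. The median over all probes was then 0.53.

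KLK6, KLK8 and KLK9 lie between KLK5 and KLK10, and under the main processing all 3 had ratios below 0 and under 1.5-fold. KLK6, also known as neurosin and abundant in brain (A_24_P236935, chr19:56158537-56158596), gave 5521 units in SAS and 4658 in eSAS, 1.14-fold lower. KLK8, also known as neuropsin (A_23_P369343, chr19:56191128-56191187), gave 23534 and 17913 units, 1.27-fold lower. KLK9 (A_23_P119311, chr19:56201684-56201743) gave 814 and 581 units, 1.35-fold lower. The log2 ratios were -0.19, -0.34 and -0.43, each with an error of 0.20 from the scanner software, which for KLK6 is larger than the ratio itself. The normexp fit to all spots gave -0.63 for KLK6, -0.91 for KLK8 and -0.028 for KLK9, which puts KLK6 and KLK8 past 1.5-fold. The median over all probes was then 0.53.

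Over the 11 member probes measured on both arrays the median log2 ratio was -0.43, beside -0.0039 over all probes. The ratio was below 0 for 10 of 11, beside 50.8% of all probes. The percentage of probes with a lower ratio was 8.16% for KLK9, 10.0% for KLK5, 11.4% for KLK8, 20.3% for KLK6, 26.7% for KLK7 and 65.4% for KLK14. It was 2.88% and 3.50% for the KLK10 probes and 0.585% and 0.555% for the KLK13 probes. These values are for the main processing. Under the normexp fit to all spots the member median was -0.079, beside 0.53 over all probes.

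Along the chromosome the members at least 1.5-fold lower under the main processing followed each other, apart from KLK12, which lies among them and is bounded at 1.29-fold. Under the normexp fit to all spots this run was absent, with KLK11 at 0.81 and KLK13 at -0.079 and 1.59, beside a median of 0.53 over all probes. All 12 probes are on the minus strand, and the cluster from the KLK5 probe to the end of the KLK14 probe spans 140.5 kb. The KLK10 probes lie 70.7 and 71.2 kb from the KLK5 probe, KLK11 78.8 kb, KLK12 85.5 kb, KLK13 115 and 116 kb, and KLK14 139 kb. Between KLK12 and KLK13 the array has 1 more probe, named for the expressed sequence BE716310 (chr19:56250863-56250904), with 491 units in SAS and 172 in eSAS. It was 2.76-fold lower, a log2 ratio of -1.46, close to the 2 KLK13 probes. Because its name is that of an expressed sequence, it cannot be said which transcript it reads.

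The run of lower probes thus holds 6 probes under 4 names, from the first KLK10 probe to the second KLK13 probe (chr19:56209408-56255526), when probes measured on both arrays are taken in order. Towards higher coordinates follow KLK14 and then ATPBD3, whose probe gave 142 units in SAS and 145 in eSAS, a log2 ratio of 0.082. Towards lower coordinates follow KLK9 at -0.43 and KLK8 at -0.34. A run ends at the first probe that is not at least 1.5-fold lower, so the ratios beside it lie above those within it by definition.

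Of 37 further gene names within 500 kb of the kallikreins, 19 were measured, with a median log2 ratio of -0.0043. None was at least 1.5-fold higher, beside 4.43% of all probes, and 3 were lower by that size, beside 6.12%. Besides BE716310, these were LOC112703, at 1082 units in SAS and 679 in eSAS, 1.54-fold lower and just short of 1.5-fold when each array was centred on its median instead, and SIGLEC7, a sialic acid receptor of immune cells. SIGLEC7 gave 56.4 units in SAS and 3.36 in eSAS, where it was not well above background, and was at least 3.58-fold lower. Its other probe was not well above background on either array, so SIGLEC7 rests on 1 probe.

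**Figure D3:**
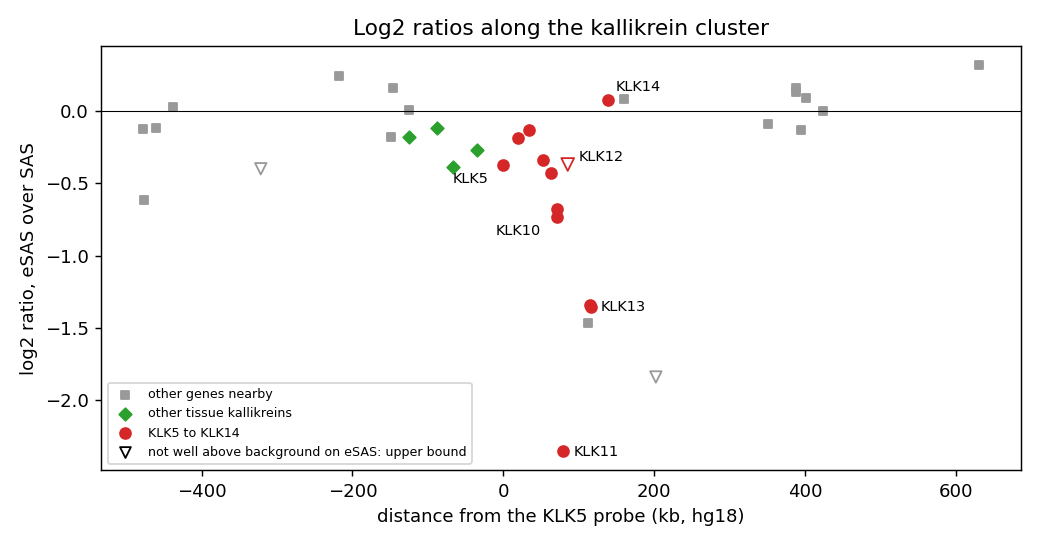
Log2 ratio of eSAS over SAS against distance from the KLK5 probe in kb (hg18) for KLK5 to KLK14 (red), the other tissue kallikreins (green) and other genes nearby (grey squares). Triangles are upper bounds for probes not well above background on the eSAS array. Under the main processing KLK5 is at -0.37, KLK6 at -0.19, KLK7 at -0.13, KLK11 at -2.35 and KLK14 at 0.073, with no even gradient along the cluster. KLK11 is above 0 under the normexp fit to all spots, where the median over all probes is 0.53.

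None of the 12 member spots was marked as non-uniform or as an outlier on either array, their local backgrounds lay between 25 and 35 units, and the coefficient of variation across pixels lay between 0.0402 and 0.310. On the SAS array 194 spots were marked as non-uniform, and rows 459 to 510 held the central 90% of them; no member spot was in those rows, and the spots of KLK10 to KLK13 lay in rows 71 to 372. Among the 24 spots nearest to each member, the median log2 ratio of those well above background lay between -0.13 and 0.037. Around KLK11 it was -0.057, and around the KLK13 probes -0.027 and 0.026. The lowest of these spots was at -0.32 around KLK11 and at -0.86 and -0.55 around the KLK13 probes, above the ratio of the member each time. Around the brighter KLK10 probe the lowest was -0.74, below that probe's -0.73, and around the other it was -0.24, above its -0.68. The part of array position in the ratios was not tested.

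The size of the KLK11 and KLK13 ratios depended on how background was removed. With no background correction the log2 ratio was -1.68 for KLK11 and -1.20 and -0.79 for KLK13, and the second KLK13 probe was then no longer 2-fold lower. A normexp background model fitted to all spots turned KLK11 to 0.81 and the second KLK13 probe to 1.59, and under it the median of all probes moved from -0.0039 to 0.53 and their SD from 0.36 to 1.15. When the same model was fitted without spots whose local background was marked as non-uniform, an option added after the data had been seen, KLK11 was at -1.53 and KLK13 at -1.17 and -0.75. KLK10 was between -0.79 and -0.70 with its brighter probe and between -0.74 and -0.65 with the other under every setting except the 2 normexp fits to all spots. Under those 2 fits KLK10 was lower still, at -1.24 with its brighter probe and at -0.88 and -0.86 with the other.

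**Figure D4:**
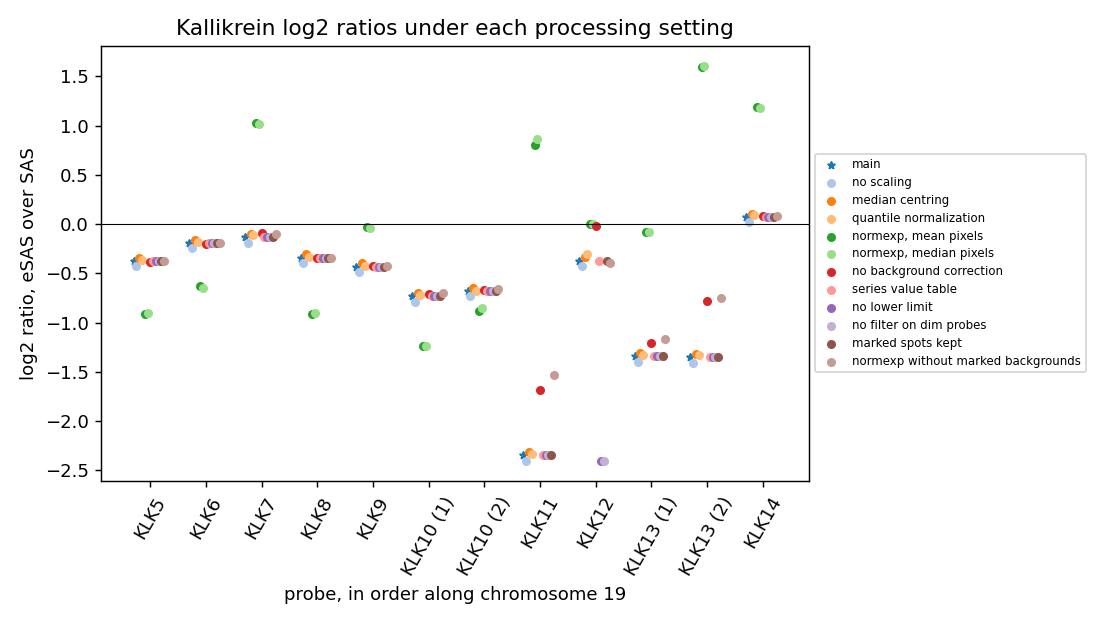
Log2 ratio of eSAS over SAS for each kallikrein probe under the main processing (star) and each alternative (circles). The normexp fits to all spots (greens) place KLK11, KLK7, KLK14 and the second KLK13 probe above 0, and the other settings place KLK11 between -2.40 and -1.53. Under both normexp fits to all spots the median over all probes is 0.53.

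The remaining 5 tissue kallikreins, KLK1 to KLK4 and KLK15, lie in the same cluster on the side of KLK5 and include the prostate proteases. Of the 4 that were measured none was at least 1.5-fold lower or higher, beside 6.12% and 4.43% of all probes. Their median log2 ratio was -0.23, or 1.37 under the normexp fit to all spots, where the median over all probes was 0.53. KLK1, the kinin-releasing tissue kallikrein, gave 806 units in SAS and 684 in eSAS, a log2 ratio of -0.18. KLK4, the enamel protease, gave 65.6 and 52.3 units, a log2 ratio of -0.27. KLK2, which activates the KLK3 precursor in prostate, was measured with 1 of 3 probes, at 31.5 and 23.2 units, a log2 ratio of -0.39. KLK3, the prostate-specific antigen, gave 5909 and 5246 units with 1 probe, a log2 ratio of -0.12, while its other 2 probes were not well above background on either array. The KLK3 probes therefore disagree about whether the gene was detected. KLK15 was not well above background with either of its probes. All 4 measured genes had ratios below 0, as did KLK5 to KLK9, and whether the 2 groups of genes differ was not tested.

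Among 8 inhibitors of kallikreins 4 were measured, with a median log2 ratio of -0.057. None was at least 1.5-fold lower, beside 6.12% of all probes, and 1 was higher by that size, beside 4.43%. The higher one was A2M, the broad plasma protease inhibitor alpha-2-macroglobulin, which gave 172 units in SAS and 3514 in eSAS. It was 21.2-fold higher, a log2 ratio of 4.41, read from 1 spot. SPINK5, whose product LEKTI inhibits KLK5, KLK7 and KLK14, gave 33.5 and 24.4 units, a log2 ratio of -0.41. SPINK6 was not well above background on either array, and no probe was matched to SPINK9. The inhibitor with a large difference was thus a broad one, and the SPINK inhibitors of skin were dim or not detected.

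Of 8 proteases that act before kallikreins and their inhibitors 6 were measured, with a median log2 ratio of 0.025. PLAU, the urokinase that turns plasminogen to plasmin, was the only one at least 1.5-fold lower, with 15461 units in SAS and 9550 in eSAS. Its 10 spots gave log2 ratios from -0.68 to -0.62, with an SD of 0.020. None was higher by that size, and of all probes 6.12% were at least 1.5-fold lower and 4.43% higher.

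Of 11 substrates and receptors, among them desmosomal cadherins and the protease-activated receptors, 7 were measured. None of the 7 was at least 1.5-fold higher or lower, beside 4.43% and 6.12% of all probes. Their log2 ratios lay between -0.37 and 0.26, with a median of -0.053. Of 8 genes of suprabasal keratinocytes, the layers in which kallikreins are made in skin, 6 were measured, with a median log2 ratio of 0.083. None of these was at least 1.5-fold lower, beside 6.12% of all probes. FLG, the filaggrin gene of the granular layer, was the only one higher by that size, beside 4.43%. One of its 3 probes gave 48.6 units in SAS and 206 in eSAS, 4.41-fold higher. Another gave 14.5 and 97.7 units, 7.01-fold higher. The last gave 12.6 units in SAS, where it did not clear background, and 27.8 in eSAS, at least 2.25-fold higher. Under the normexp fit to all spots the median of this list was 2.49, beside 0.53 over all probes.

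Steroid hormones are known to regulate several kallikreins in glands and in cell lines. Of 5 steroid and vitamin D receptors 4 were measured, with a median log2 ratio of 0.15. At 1.5-fold or more none was higher and 1 was lower, beside 4.43% and 6.12% of all probes. ESR1, the estrogen receptor alpha, was lower, at 78.6 units in SAS and 23.6 in eSAS over 9 spots of 1 probe. Its log2 ratio was -1.68, with spots from -2.15 to -1.35 and an SD of 0.24. Another ESR1 probe gave 22.0 units in SAS and did not clear background in eSAS, where it gave 15.2, and the remaining probe did not clear it on either array. The part of ESR1 in the kallikrein ratios was not tested.

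Of the 8 markers of squamous epithelium 3 were at least 1.5-fold lower, beside 6.12% of all probes. In all 7 had log2 ratios below 0, beside 50.8% of all probes, and their median was -0.51. KRT14, a keratin of basal cells, gave 8749 units in SAS and 88.3 in eSAS with 1 probe, a log2 ratio of -6.58, and 3136 and 1286 units with the other, a log2 ratio of -1.23. Both KRT14 probes were lower, yet by very different amounts. KRT5, its partner keratin, gave 22037 and 13677 units, a log2 ratio of -0.63, and SFN, an epithelial 14-3-3 protein, 4987 and 3193 units, a log2 ratio of -0.59. The others were KRT17 at -0.55, CDH1 at -0.48, KRT6A at -0.46, TP63 at -0.40 as the mean of its probes, and EPCAM at 0.040, around the median of -0.51. This marker median is by gene, while the kallikrein median was -0.43 by probe and -0.37 by gene. The part of the markers in the kallikrein ratios was not tested.

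**Figure D5:**
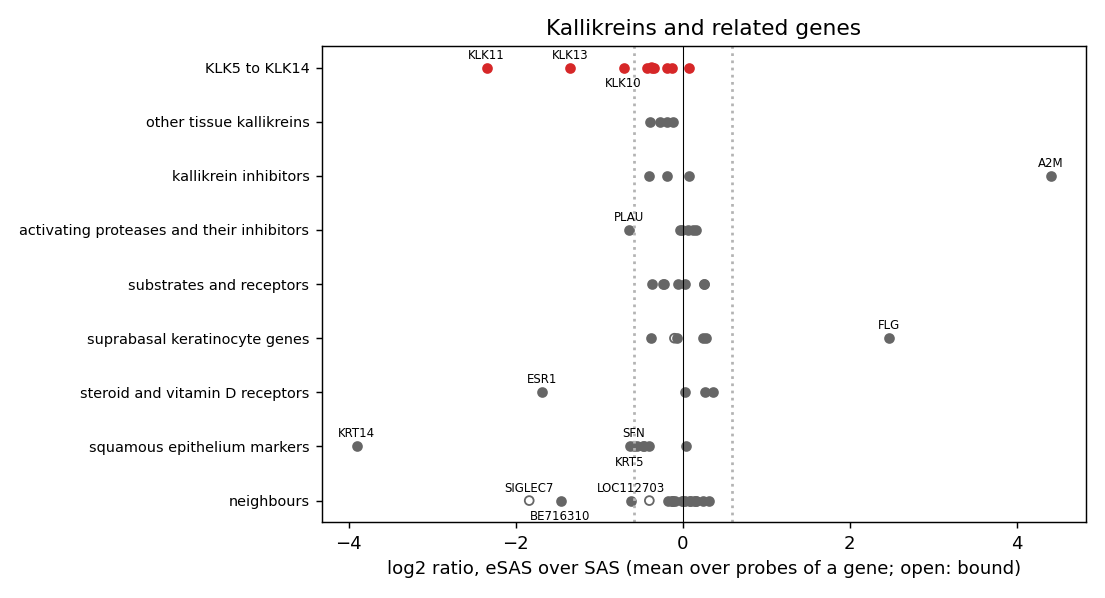
Log2 ratio of eSAS over SAS for each measured gene (mean over its probes, open circles for bounds) in KLK5 to KLK14 (red) and in related lists, markers and neighbours (grey). Dotted lines mark 1.5-fold. KLK10, KLK11 and KLK13 lie left of the lines under the main processing, no other tissue kallikrein does, and A2M (4.41) and FLG lie to the right.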

How the data were processed

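RNA of SAS and eSAS cells was hybridised to 1 Agilent 4x44K one-colour array each. The authors deposited the output of Agilent Feature Extraction 10.7.3.1 (version from the submitters' processing notes), with linear intensity values per spot, and the processed signal used here had been corrected for background by that software and not scaled between arrays. The deposited series table equalled this signal in all spots. Processed signals were scaled by the 75th percentile over non-control spots of their array and put on the log2 scale, spots marked as non-uniform or as outliers on either array were left out, and replicate spots were averaged per probe. A probe was taken as well above background where over 50 percent of its spots carried that mark. Where a probe cleared background on 1 array only, its dim side was raised to the lowest signal that did (12.8 units for SAS, 15.2 for eSAS) if it lay under it, and the fold is a bound. Folds of 1.5 and 2 are rules of size, and 1 array per group limits the precision. The 4 brightness groups are of the mean scaled log2 level of both arrays. The array's own gene names and hg18 positions were used, and no coordinate was converted between builds.

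All members and every tissue kallikrein were named, as were SPINK5, SPINK6 and SPINK9, and from each further list up to 4 measured genes at least 1.5-fold higher or lower; the squamous markers, ATPBD3 and COL1A1 are named beside them. The members and lists were chosen with earlier results of these data known. Alternatives used other scalings, filters and background models, with normexp (offset 50) and quantile normalization from limma 3.58.1 in R 4.3.3. The counting steps were run on simulated data in which only brighter probes were lowered, by well over the 2-fold limit. That run covers neither dim probes nor bounds.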

Additional observations from a re-analysis of the deposited data

How the results depend on the processing

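With no scaling, median centring, quantile normalization, no background correction, the series table, no lower limit or marked spots kept, the member median and the counts of lower and higher member probes stayed within 1.5 times or within the spread between replicate spots. Several of these settings could hardly move them. The series table equalled the signal, no member spot was marked, and the lower limit touched only KLK12 among the members. No scaling and median centring shift all probes alike. The counts of member probes at least 2-fold lower ranged from 2 (no background correction) to 4 (no lower limit), with 3 in the main processing. A normexp fit to all spots on mean pixels gave a member median of -0.079, 1 member probe lower by 2-fold or more, 3 higher by that size and 4 higher by 1.5-fold or more, and moved the list medians to 1.37 (other kallikreins), 2.81 (inhibitors), -0.051 (activating proteases), 0.49 (substrates and receptors), 2.49 (suprabasal genes), 1.03 (hormone receptors) and 0.30 (neighbours), with 24 list genes at least 1.5-fold higher in place of 2. On median pixels it gave a member median of -0.082 and counts of 1, 3 and 4. Member probes at least 1.5-fold lower numbered 5 under both fits. The median over all probes was 0.53 under both, and the shares of all probes past these sizes are not given here. KLK11 turned to 0.81 and 0.86 under these fits and the second KLK13 probe to 1.59 and 1.61. The cause was not tested. With no filter on dim probes the member median was -0.56, the list medians were 0.078 (inhibitors), 0.25 (substrates and receptors), 0.19 (suprabasal genes), 0.25 (hormone receptors) and 0.13 (neighbours), and 6 list genes were at least 1.5-fold higher and 9 lower, in place of 2 and 5, because probes near background then enter. Taken by gene in place of probe, 3 members were at least 1.5-fold lower. The normexp fit without marked backgrounds, chosen after seeing the data, gave list medians of -0.13 (other kallikreins), -0.011 (suprabasal genes) and 0.035 (hormone receptors). KLK12 was at -2.41 without the lower limit and its bound at -0.014 with no background correction. No paired analysis was possible because each population has a single array, and for the same reason no array could be left out. Signal near background limits KLK12, KLK2, SPINK5 and the weaker probes of FLG and ESR1, and no spot was saturated. It also limits KLK11 and the second KLK13 probe on the eSAS array. There KLK11 had a mean pixel value of 109 and a processed signal of 62.3, and the second KLK13 probe 111 and 61.7.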

Other observations

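Consecutive probes that are all lower were also found elsewhere. Of 26470 positioned probes well above background on both arrays, taken in order along each chromosome, 40 runs of at least 4 probes were all at least 1.5-fold lower in eSAS and 8 runs were all higher by that size. Of the lower runs 25 lay on chromosome X and 15 on other chromosomes. Among the 15, which include the run from KLK10 to KLK13 with its 6 probes, 2 had at least 6 probes and 3 had at least 4 names.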
